A study of Sus scrofa with 10 samples.

Results

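Mitophagy is the selective removal of mitochondria by autophagy, in which a membrane cup closes around the organelle and delivers it to the lysosome. Receptors in the outer mitochondrial membrane can recruit the cup directly, or the kinase PINK1 can mark a damaged mitochondrion with ubiquitin chains that soluble adaptors recognise. The heart, with its dense mitochondria, depends on this turnover. Described here are 9 genes chosen by name among the 35670 gene identifiers of the deposited tables: the membrane receptors BNIP3L, BNIP3 and FUNDC1, the kinase PINK1, the adaptors SQSTM1 and OPTN, the core autophagy genes ULK1 and BECN1, and TFEB, the transcription factor of lysosome and autophagy genes. Each symbol matched 1 identifier, all 9 are protein-coding genes in RefSeq, and all 9 passed the filter on low counts.

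Nuclear RNA of sorted minipig (Sus scrofa) cardiomyocytes had been sequenced. In 3 libraries (numbered 8 to 10) the heart came from the group given deoxycorticosterone acetate together with JK07, which the series title calls an agonist of the receptor ERBB4. In 2 libraries (6 and 7) deoxycorticosterone acetate (DOCA), a mineralocorticoid that raises blood pressure in animals, was the only agent, and in 5 libraries (1 to 5) the controls had received PBS. All are labelled wild type and heart, and all titles, those of the controls included, begin with the letters AF. Age, chamber, dose and duration are not given in the sources used here. Neither is whether each library is a separate animal, so p-values measure the spread between libraries, which may be technical.

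The DOCA libraries were the shallowest. Outside 2 scaffolds of ribosomal RNA, which took 77.6% to 90.8% of counts, and the mitochondrial genome, the DOCA plus JK07 libraries held 9.03 to 12.9 M estimated counts, the DOCA libraries 6.87 and 3.3 M, and the controls 8.67 to 13.9 M. All genes on the mitochondrial genome together made up 4.4% to 8.26% of counts outside those scaffolds in DOCA plus JK07, 2.58% and 0.488% in DOCA and 3.69% to 5.57% in control. Of 15535 genes that averaged 20 or more counts, 30.7% and 34.7% were at 0 in the DOCA libraries, against 3.09% to 10.5% in the controls. All 7 cardiomyocyte markers with an identifier were above 0 in every library, and summed to 5019 to 8010 CPM (counts scaled to library size) in DOCA plus JK07, 3480 and 5602 CPM in DOCA and 4097 to 4920 CPM in control. All 7 fibroblast markers were above 0 in every library too, at 567 to 1446 CPM in DOCA plus JK07, 557 and 2169 CPM in DOCA and 574 to 2287 CPM in control, and endothelial, macrophage and mural markers were lower and overlapped between the groups. In such bulk libraries, fewer cells of a type and less RNA per cell cannot be told apart. Of the deposited coverages above 0, 3.96% were under 1, so a gene listed at 0 may have held reads too few to be listed. TMM scaling gave library 6 a factor of 0.511, against 0.871 to 1.35 in the others, which raises its CPM relative to its TPM. Beyond a fit with counts thinned to the shallowest library, the part of these differences in the results below was not tested.

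Levels between genes were compared per transcript length, in TPM. In control nuclei SQSTM1 was highest at 14.1 ± 2.28 TPM, followed by PINK1 at 7.81 ± 1.45, BNIP3 at 6.4 ± 0.935, OPTN at 3.46 ± 0.521 and TFEB at 3.41 ± 0.612 TPM (SD, n = 5). Below them lay BNIP3L at 2.17 ± 0.215, BECN1 at 1.97 ± 0.24, ULK1 at 1.63 ± 0.188 and FUNDC1 at 0.537 ± 0.222 TPM. The control ranges overlapped for PINK1 and BNIP3, for OPTN and TFEB, for BNIP3L and BECN1, and for BECN1 and ULK1. The other neighbours in this order did not overlap. In DOCA nuclei BNIP3L ranked 8 of 9, at 0.263 and 0.662 TPM, and BNIP3 ranked 2 of 9, at 5.83 and 5.41 TPM.

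The comparison of DOCA with control asked which of these transcripts differ after DOCA alone. BNIP3L fell, TFEB rose, and FUNDC1 was listed at 0 in both DOCA libraries and passed the test as lower. The other 6 did not pass. Over all 17251 genes tested, 19.7% passed as lower and 5.73% as higher, so 2 lower and 1 higher of 9 members lay near the background. The median log2 change was -0.13 over the members and -0.63 over all genes tested.

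BNIP3L, also called NIX, is the receptor that clears mitochondria from maturing red cells and is also present in heart. Its gene lies on chromosome 14 (ENSSSCG00000009658, 10318732 to 10345679 of Sscrofa11.1, plus strand). It held 1.1 and 1.54 CPM in the DOCA libraries and 4.2, 5.03, 5.37, 4.66 and 4.08 CPM in the controls. Both DOCA values lay below every control value, as they did for 27.6% of all genes tested. Among all genes tested, 7.75% had a smaller p than BNIP3L and 31.4% a lower log2 change. Its log2 fold change was -1.82 (SE 0.24, edgeR adjusted p = 0.000491). It ranged from -2.08 to -1.60 when any 1 library was left out, with adjusted p of 0.000484 to 0.00243. Of the other 11 alternatives only the fit with quality weights per library ended the call (-1.90, adjusted p = 0.101).

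The DOCA values of BNIP3L rest on few counts, 43 and 46, against 268 to 537 in control. They also stood at the lower end of what the tables report, at 1.01 and 1.08 times the smallest TPM above 0 of their library, against 6.29 to 12.6 times in control. At the mean control level, library 6 would have held 182 and library 7 140 counts, a coverage of 3.33 and 2.55, where 0.785 and 0.842 were observed. Whether a further transcript with too few reads to be listed is missing from the DOCA sums was not tested.

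BNIP3, the hypoxia-induced relative of BNIP3L (chromosome 14, 140362127 to 140371907, minus strand), did not pass. It had 8.45 and 4.35 CPM in DOCA and 3.94, 5.58, 5.15, 4.96 and 4.19 CPM in control. Library 6 lay above all controls and library 7 within them. In TPM library 6 (5.83) lay within the controls (5.5 to 7.92) and library 7 (5.41) below all of them. The log2 change was 0.43 (SE 0.26, adjusted p = 0.271). Without library 7 it was 0.83 (adjusted p = 0.0181) and without library 6 it was -0.13 (adjusted p = 0.68), so the direction rested on library 6.

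The ratio of these related receptors within a library does not depend on scaling between libraries, and was taken up after its values were seen. The log2 ratio of BNIP3L to BNIP3 TPM was -4.47 and -3.03 in the DOCA libraries and -1.43, -1.68, -1.47, -1.62 and -1.57 in the controls. BNIP3L thus had 0.0451 and 0.122 of the TPM of BNIP3 in DOCA, against 0.312 to 0.37 in control. The BNIP3L values behind the 2 DOCA ratios stood at 1.01 and 1.08 times the smallest TPM above 0 of their library. The difference was -2.20, with an SD of 1.02 in DOCA and 0.10 in control. By an exact two-sided permutation test p = 0.0952, the smallest that 2 against 5 libraries allow (0.161 adjusted over 3 comparisons). The difference was -1.48 without library 6 and -2.92 without library 7.

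**Figure D1:**
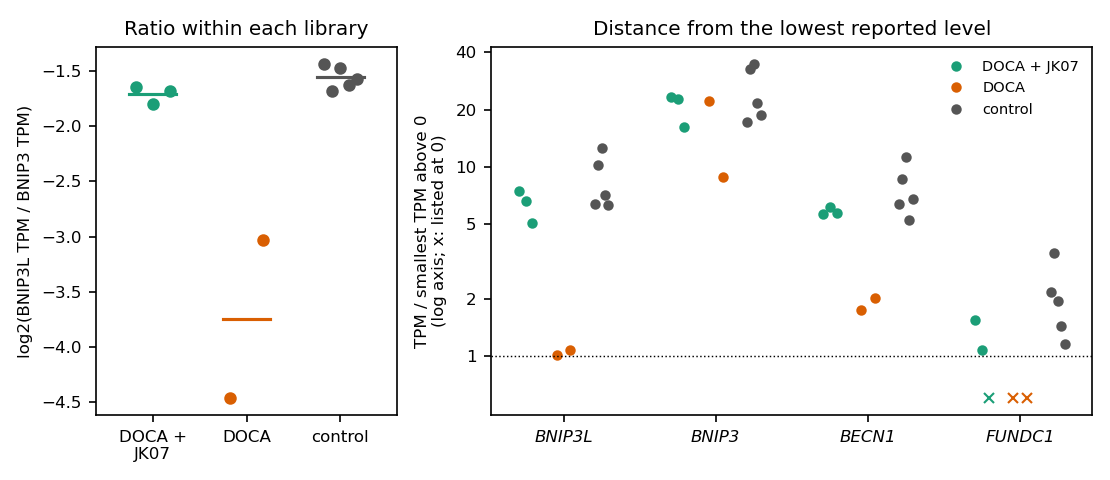
Left, log2 ratio of BNIP3L to BNIP3 TPM in each library (points) with group means (lines). Right, TPM of 4 members divided by the smallest TPM above 0 of the same library, on a log axis, with the dotted line at 1 and crosses for values listed at 0: BNIP3L stands at 1.01 and 1.08 in the DOCA libraries, against 6.29 to 12.6 in the controls, while BNIP3 stays at 8.83 or above.

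FUNDC1, a receptor regulated by phosphorylation in hypoxia (chromosome X, 39724998 to 39737532, minus strand), was the lowest member. It was listed at 0 in both DOCA libraries and held 1.42, 1.68, 0.81, 0.935 and 0.731 CPM in the controls. At the control mean its coverage would have been 0.969 in library 6 and 0.741 in library 7, below the lowest coverage at which it was listed in any library (1), so absence from DOCA could not be told from low depth and no fold was read. Its adjusted p was 0.0346 and lay between 0.000953 and 0.0981 in the 10 fits that left out 1 library. The call held in 2 of them, without library 8 (0.0491) and without library 10 (0.000953), and ended in the others, at 0.0595, 0.0618, 0.0577, 0.0606 and 0.0525 without control libraries 1 to 5 in that order, 0.0981 without library 6, 0.0803 without library 7 and 0.0555 without library 9.

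PINK1, SQSTM1 and OPTN did not pass. PINK1 (chromosome 6, 78863190 to 78884640, plus strand) had 8.34 and 13 CPM in DOCA and 14.3, 20.2, 16.2, 16.1 and 13.5 CPM in control. Both DOCA values lay under the lowest control, as for 27.6% of all genes tested. The log2 change of -0.59 (SE 0.29, edgeR adjusted p = 0.177) was close to the median of all genes tested.

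SQSTM1, the adaptor p62 that links ubiquitin to the autophagosome (chromosome 2, 78752771 to 78763938, minus strand), had 29.9 and 18.9 CPM in DOCA and 22.7, 18.4, 20.3, 15.7 and 21 CPM in control. Library 6 was above all controls and library 7 among them (log2 change 0.32, SE 0.21, adjusted p = 0.305), while in TPM both DOCA libraries (11 and 12.5) lay within the controls (10.8 to 16.9). OPTN, the adaptor optineurin (chromosome 10, 48530843 to 48582860, minus strand), had 7.75 and 5.79 CPM in DOCA and 6.86, 8.86, 7.93, 7 and 6.4 CPM in control. In CPM the groups overlapped (edgeR log2 change -0.13, SE 0.22, adjusted p = 0.699). In TPM both DOCA libraries (1.86 and 2.49) lay below all controls (3.07 to 4.36). The share of all genes that did so in TPM was not counted. In limma on log2(TPM + 1), 4933 of 17251 genes passed as lower in DOCA and 258 as higher. An unnamed identifier on the opposite strand overlaps PINK1 and another overlaps SQSTM1 by 100 bases; they averaged 15.4 and 24.9 counts, against 954 for PINK1 and 1442 for SQSTM1, and the strand setting is not given.

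Of the core genes, BECN1 encodes beclin 1 of the lipid kinase complex that starts the autophagosome (chromosome 12, 20041956 to 20054373, plus strand). It had 1.48 and 2.27 CPM in DOCA and 3.3, 3.29, 3.72, 2.66 and 3.41 CPM in control. The groups did not overlap, as for 27.6% of all genes tested in that direction. The log2 change was -0.80 (SE 0.27, adjusted p = 0.0609). The change was -1.14 without library 7 and -0.53 without library 6. With all 10 libraries BECN1 passed in DESeq2 (-0.74, adjusted p = 0.00915). It also passed on both TPM scales tested with limma (-0.71 with a pseudocount of 1, adjusted p = 0.043, and -1.24 with 0.1, adjusted p = 0.0339).

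ULK1, the kinase that initiates autophagy (chromosome 14, 23423698 to 23448136, minus strand), had 4.73 and 8.26 CPM in DOCA and 4.84, 4.62, 6.71, 6.48 and 5.33 CPM in control. In CPM library 7 lay above all controls and library 6 among them (edgeR log2 change 0.21, SE 0.27, adjusted p = 0.588). In TPM library 7 (2.23) lay above the controls (1.43 to 1.83) and library 6 (0.711) below them.

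TFEB (chromosome 7, 36870242 to 36920865, minus strand) had 10.6 and 8.16 CPM in DOCA and 5.06, 4.79, 7.07, 6.08 and 3.87 CPM in control. Both DOCA values exceeded every control value, as they did for 10.2% of all genes tested. In TPM they were 3.49 and 4.8 in DOCA and 2.54 to 4.18 in control, which overlapped. TFEB rose by a log2 change of 0.81 (SE 0.24, edgeR adjusted p = 0.036). The call held in 5 of the 10 fits that left out 1 library, with a change of 0.60 (adjusted p = 0.163) without library 6 and 0.99 (adjusted p = 0.0271) without library 7. It also ended without library 1, 2, 5 or 9 (adjusted p = 0.0524, 0.0529, 0.0512 and 0.0556). On log2(TPM + 1) its change was 0.22 (limma adjusted p = 0.554). On that scale 4933 genes were lower and 258 higher.

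**Figure D2:**
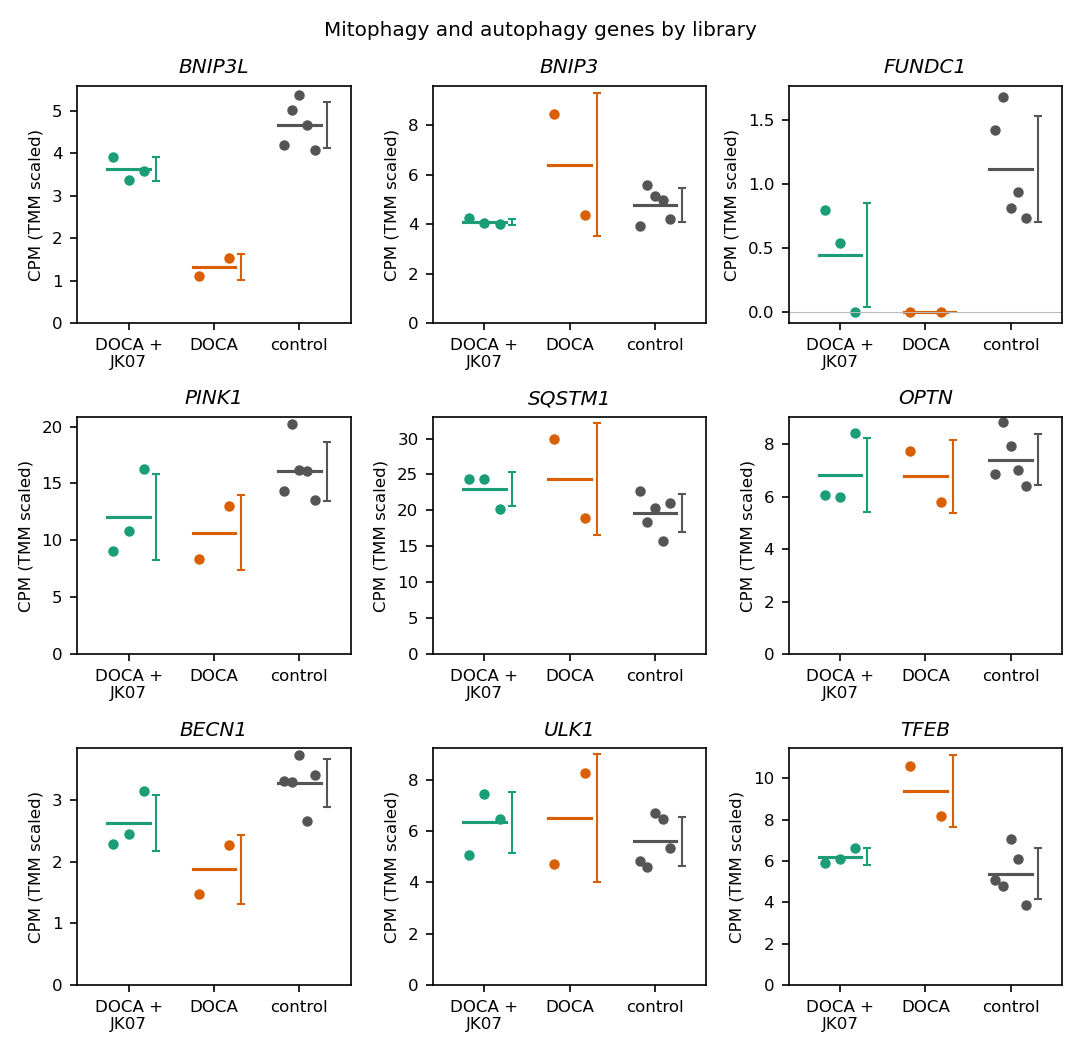
CPM of the 9 members after TMM scaling, 1 point per library, with group means (lines) and SD (bars; n = 3 for DOCA plus JK07, 2 for DOCA, 5 for control). BNIP3L in DOCA (1.1 and 1.54 CPM) lies below all other libraries and TFEB in DOCA (10.6 and 8.16 CPM) above them, while SQSTM1, OPTN and ULK1 overlap.

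The comparison of DOCA plus JK07 with DOCA asked whether these transcripts differ once JK07 is added. It uses the same DOCA libraries as the comparison above, so a gene low in both of them appears in both. BNIP3L was higher with JK07 and the other 8 members did not pass. Of all genes tested 14.7% passed as higher and 2.25% as lower, so 1 higher of 9 members lay near the background. The median log2 change was 0.01 over the members and 0.55 over all genes tested.

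BNIP3L had 3.92, 3.37 and 3.59 CPM in DOCA plus JK07 and 1.1 and 1.54 CPM in DOCA. All 3 values with JK07 exceeded both values without it, as they did for 30.3% of all genes tested. Among all genes tested, 67.6% had a lower log2 change than BNIP3L. BNIP3L was higher by a log2 change of 1.46 (SE 0.25, edgeR adjusted p = 0.00281). Leaving out any 1 library gave 1.24 to 1.72, with adjusted p of 0.00149 to 0.016. The call ended with quality weights (1.51, adjusted p = 0.213) and when only these 5 libraries were fitted (1.40, adjusted p = 0.0749). The log2 ratio of BNIP3L to BNIP3 was -1.64, -1.80 and -1.68 with JK07, against -4.47 and -3.03 in DOCA (exact permutation p = 0.2, the smallest that 3 against 2 allow).

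TFEB had 5.9, 6.1 and 6.65 CPM with JK07 and 10.6 and 8.16 CPM in DOCA. These groups did not overlap, as for 9.82% of all genes in that direction, though in TPM they did (3.42 to 6.24 with JK07, 3.49 and 4.8 in DOCA), and the log2 change of -0.60 (SE 0.26, adjusted p = 0.164) did not pass in edgeR, passed in DESeq2 (-0.71, adjusted p = 0.0347) and had the other sign on log2(TPM + 1) (0.13). BNIP3 had 4.24, 4.06 and 3.99 CPM with JK07 and 8.45 and 4.35 CPM in DOCA. These groups did not overlap in CPM but did in TPM (4.79 to 7.86 with JK07, 5.83 and 5.41 in DOCA), and BNIP3 did not pass (-0.64, SE 0.29, adjusted p = 0.17), was called without library 7 (-1.04, adjusted p = 0.00911), and was -0.09 without library 6 and 0.15 on log2(TPM + 1).

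BECN1 had 2.29, 2.45 and 3.14 CPM with JK07 and 1.48 and 2.27 CPM in DOCA (log2 change 0.48, SE 0.29, edgeR adjusted p = 0.294). Its groups did not overlap, as for 30.3% of all genes tested in that direction. FUNDC1 was at 0.8 and 0.542 CPM in libraries 8 and 9 and listed at 0 in library 10 and in both DOCA libraries, and no fold was read. PINK1 had 9.06, 10.8 and 16.3 CPM with JK07 and 8.34 and 13 CPM in DOCA, which overlapped (0.17, SE 0.30, adjusted p = 0.756). SQSTM1 had 24.3, 24.4 and 20.2 CPM with JK07, within its range of 18.9 to 29.9 CPM in DOCA (-0.09, SE 0.23). In TPM its values with JK07 (20.7, 15.4 and 21.3) lay above both in DOCA (11 and 12.5). It did not pass in limma on log2(TPM + 1) (0.64, adjusted p = 0.152). On that scale 5536 of 17251 genes passed as higher with JK07 and 90 as lower. The share of all genes without overlap in TPM was not counted. OPTN had 6.05, 5.97 and 8.44 CPM with JK07 against 7.75 and 5.79 CPM in DOCA (0.01, SE 0.24), and ULK1 had 5.06, 7.46 and 6.49 CPM against 4.73 and 8.26 CPM (-0.04, SE 0.30). For OPTN and ULK1 the groups overlapped in CPM and in TPM.

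**Figure D3:**
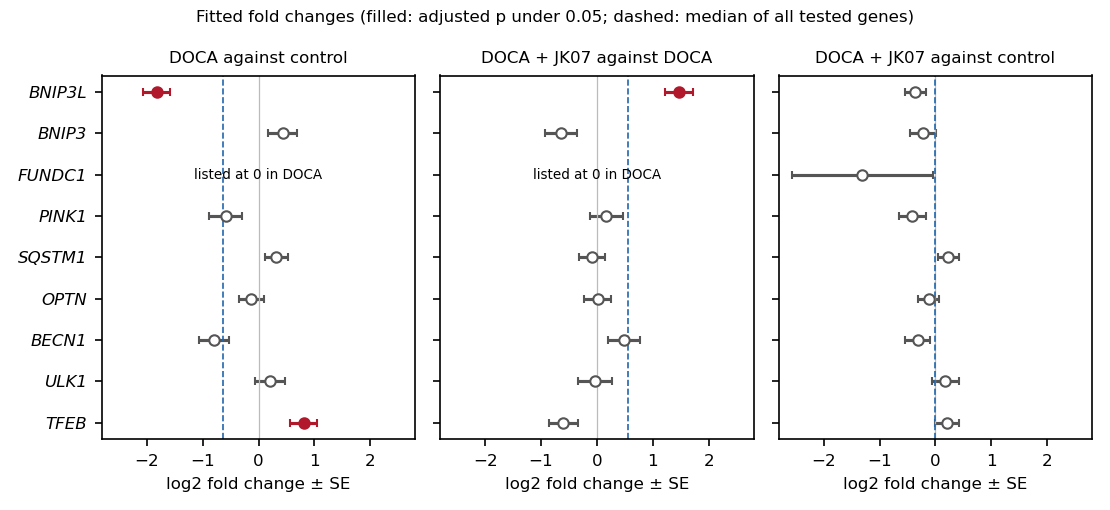
Log2 fold change (x axis, ± SE) of each member (y axis) in the 3 comparisons, with the first-named group over the second. Filled points passed at an adjusted p of 0.05, and the dashed line is the median of all genes tested (-0.63, 0.55 and 0.00); BNIP3L stands at -1.82, 1.46 and -0.36.

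The comparison of DOCA plus JK07 with control shares its libraries with both comparisons above. None of the 9 members passed in edgeR, none had an unadjusted p under 0.05, and none passed in DESeq2 or with quality weights. Over all genes edgeR called 0 (0% higher and 0% lower, with 803 of 17251 at an unadjusted p under 0.05) and DESeq2 called 51 higher and 64 lower. BNIP3L had 3.92, 3.37 and 3.59 CPM with JK07 and 4.08 to 5.37 CPM in control. All JK07 values lay below all controls, as for 2.45% of all genes tested, whereas in TPM the groups overlapped (2.16, 1.38 and 2.45 with JK07, 1.95 to 2.47 in control), and the log2 change was -0.36 (SE 0.19, unadjusted p = 0.0897, adjusted p = 1).

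PINK1 had 9.06, 10.8 and 16.3 CPM with JK07 and 13.5 to 20.2 CPM in control (-0.41, SE 0.24). TFEB had 5.9 to 6.65 CPM with JK07 and 3.87 to 7.07 CPM in control (0.21, SE 0.21). FUNDC1 had 0.8, 0.542 and 0 CPM with JK07 and 0.731 to 1.68 CPM in control; at the control mean its coverage in library 10 would have been 1.49. For BNIP3, SQSTM1, OPTN, BECN1 and ULK1 the log2 changes lay between -0.32 and 0.23 with SE of 0.19 to 0.24. These errors leave room for changes of similar size in either direction, so the members are not shown to be alike in the 2 groups. The log2 ratio of BNIP3L to BNIP3 differed by -0.15 (exact permutation p = 0.107, smallest possible 0.0357).

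Around the members, 6 lists of autophagy genes held 135 tested genes. In DOCA against control 30 of them were lower and 10 higher, or 22.2% and 7.41%, near the 19.7% and 5.73% of all genes tested. In DOCA plus JK07 against DOCA 22 were higher and 4 lower, or 16.3% and 2.96%, near the 14.7% and 2.25% of all genes tested. With quality weights per library, 1 gene was called higher and 4 lower of all 17251 in that comparison. In DOCA plus JK07 against control 0 passed in edgeR. Beside these lists, all 13 mitochondrially encoded genes were lower in DOCA (median log2 change -2.93) and higher with JK07 than in DOCA (3.51). All genes on the mitochondrial genome together, these 13 and others, made up 2.58% of counts outside the ribosomal scaffolds in library 6 and 0.488% in library 7. The share of these 13 alone was not computed. The RNA was nuclear, and how mitochondrial transcripts came into the libraries was not tested. Under the quality weights, FLCN was the only gene named below from the 6 lists whose call in DOCA against control held.

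Among 20 genes of initiation and membrane nucleation, 2 were lower and 1 higher in DOCA (10% and 5%, against 19.7% and 5.73% of all genes tested). The median was -0.24, against -0.63 over all genes tested. PIK3C3, the lipid kinase bound by beclin 1, had 3.87 ± 1.2 CPM in DOCA and 10.3 ± 1.58 CPM in control (SD, n = 2 and 5; log2 change -1.42, SE 0.25, adjusted p = 0.00282) and was higher with JK07 than in DOCA (1.23, SE 0.26, adjusted p = 0.0102). ATG2B, a lipid transfer protein of the growing membrane, changed by -1.07 (adjusted p = 0.0135; 0.0825 without library 6). WDR45B, which binds the lipid product of PIK3C3, had 13.2 ± 0.269 CPM in DOCA and 6.98 ± 1.57 CPM in control (0.92, adjusted p = 0.0249; 0.0731 without library 6 and 0.054 without library 7; 0.31 with adjusted p = 0.42 in limma on log2(TPM + 1)).

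The ATG8 proteins and their conjugation enzymes had 5 lower and 2 higher of 16 tested in DOCA (31.2% and 12.5%, against 19.7% and 5.73% of all genes tested). The median was -0.34, or 0.00 when the 4 genes at 0 in both DOCA libraries are placed at no change. The median of all genes tested (-0.63) was not recomputed in this way. The 4 genes are among the 5 lower, and no fold can be read for them. These 4 were ATG12, ATG4C, ATG10 and ATG4A, whose means in control were 4.02, 2.97, 2.02 and 0.99 CPM. All 4 were above 0 in each DOCA plus JK07 and each control library. Thinning acts on listed counts only, so the part of the lower depth of the DOCA libraries in these zeros was not tested.

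Of 27 other mitophagy receptors, adaptors and regulators, 9 were lower and 1 higher in DOCA, a share of 33.3% against 19.7% of all genes, with a median of -1.09 (-0.51 with the genes at 0 placed at no change). TBK1, the kinase that phosphorylates optineurin and p62, was listed at 0 in both DOCA libraries against 3.63 ± 0.732 CPM in control (SD, n = 5). It is counted among the 9 lower. MFN1, a mitofusin of the outer membrane, had 6.79 ± 0.609 CPM in DOCA and 14.5 ± 2.09 CPM in control (a change of -1.09 on the log2 scale, SE 0.21, adjusted p = 0.00495).

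TAX1BP1, an adaptor of the same class as p62, had 4.42 ± 2.47 CPM in DOCA and 14.2 ± 2.31 CPM in control (-1.68, SE 0.33, adjusted p = 0.00499; -2.41 without library 6). TOLLIP, a ubiquitin-binding adaptor, had 7.01 ± 0.218 CPM in DOCA and 3.87 ± 0.228 CPM in control (0.86, SE 0.17, adjusted p = 0.00528), a call that limma on log2(TPM + 1) did not make (0.26, adjusted p = 0.469). With JK07 added, 6 genes of this list were higher and 1 lower than in DOCA (22.2% and 3.7%, against 14.7% and 2.25% of all genes tested), among them MFN1 (1.07, adjusted p = 0.0094), TAX1BP1 (1.61, adjusted p = 0.00985; 2.34 without library 6) and TOLLIP (-0.87, adjusted p = 0.0108).

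The list of TFEB relatives and lysosomal genes had 8 lower and 0 higher of 29 tested in DOCA (27.6% and 0%, against 19.7% and 5.73% of all genes tested). Its median was -0.59, or -0.03 with the 5 genes at 0 in both DOCA libraries placed at no change. Those 5 include ATP6V1A and LIPA, which are counted among the 8 lower though no fold can be read for them. MITF, a relative of TFEB, had 6.47 ± 1.63 CPM in DOCA and 14.3 ± 3.33 CPM in control (-1.15, SE 0.27, adjusted p = 0.0144; 0.0779 without library 7), and 21.7 ± 2.96 CPM with JK07 against 6.47 ± 1.63 CPM in DOCA (1.74, SE 0.30, adjusted p = 0.00252). The proton pump subunit ATP6V1H had 1.23 ± 0.137 CPM in DOCA and 3.31 ± 0.315 CPM in control (-1.42, SE 0.25, adjusted p = 0.00264). ATP6V1A, another subunit, and LIPA, the lysosomal acid lipase, had no listed value in either DOCA library, against averages of 3.81 and 2.1 CPM in control.

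Of 28 upstream regulators, 4 were higher and 3 lower in DOCA (14.3% and 10.7%, against 5.73% and 19.7% of all genes tested). The median was -0.18. FLCN, folliculin, which lets mTORC1 restrain TFEB, had 16.5 to 34.4 CPM in DOCA and 6.33 to 9.28 CPM in control (1.70, SE 0.26, adjusted p = 0.00108; 1.08 without library 6). RRAGC, the Rag GTPase that folliculin acts on, had 1.6 ± 0.375 CPM in DOCA and 3.86 ± 0.498 CPM in control (-1.26, SE 0.26, adjusted p = 0.00686). PRKAB2, a subunit of the energy sensor AMPK, changed by -1.29 (adjusted p = 0.00302). PRKAG2, the AMPK subunit mutated in a glycogen storage cardiomyopathy, had 62.4 to 220 CPM in DOCA and 10.1 to 29.1 CPM in control (2.83, adjusted p = 0.00519; 1.65 with adjusted p = 0.0757 without library 6, and 3.47 without library 7). With JK07, RRAGC was higher than in DOCA (1.26, adjusted p = 0.0117), as was PRKAG1, another AMPK subunit (1.04, adjusted p = 0.0122), and FLCN was lower (-1.34, adjusted p = 0.0117; -0.72 with adjusted p = 0.0667 without library 6).

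Genes of autophagosome tethering and fusion had 3 lower and 2 higher of 15 in DOCA (20% and 13.3%, against 19.7% and 5.73% of all genes tested). The median was -0.37 (-0.18 with the gene at 0 placed at no change). STX17, the autophagosomal SNARE, had 4.71 ± 1.71 CPM in DOCA and 12.1 ± 1.94 CPM in control (-1.36, SE 0.26, adjusted p = 0.00483), and EPG5, a tether, changed by -1.23 (adjusted p = 0.0075). TECPR1, also a tether, had 5.24 ± 0.679 CPM in DOCA and 1.44 ± 0.542 CPM in control (1.86, SE 0.34, adjusted p = 0.00357). With JK07, STX17 stood at 12 ± 1.6 CPM against 4.71 ± 1.71 CPM in DOCA (1.35, SE 0.28, adjusted p = 0.00833). VPS33A, a subunit of the tethering complex HOPS, had no listed value in either DOCA library, against an average of 1.54 CPM in control.

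**Figure D4:**
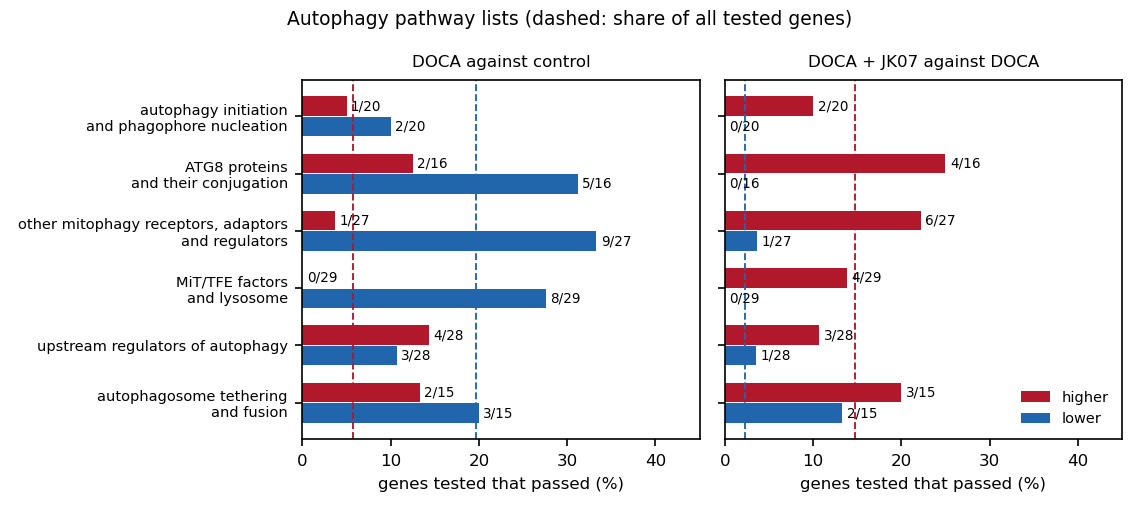
Share (x axis, %) of the tested genes of 6 autophagy lists that passed as higher or lower in DOCA against control and in DOCA plus JK07 against DOCA, with counts beside the bars. Dashed lines mark the share over all 17251 genes tested (5.73% higher and 19.7% lower at left, 14.7% and 2.25% at right); the receptor and adaptor list has 33.3% lower at left.

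The gene with a symbol whose log2(CPM + 1) profile over the 10 libraries was most like that of a member was also looked up, among 12408 such genes. For BNIP3L it was NOP10 (Pearson correlation 0.983), a protein of small nucleolar ribonucleoproteins, and for TFEB it was ASMTL (0.977). For FUNDC1 it was CMC1 (0.984), an assembly factor of cytochrome c oxidase, and for OPTN it was CYC1 (0.95), cytochrome c1 of complex III. PINK1 was closest to EIF3L (0.953), a translation initiation factor subunit, SQSTM1 to DESI1 (0.962) and BECN1 to WDFY1 (0.949). BNIP3 was closest to IRGC (0.959) and ULK1 to HSD17B1 (0.975). All points share the 2 DOCA libraries, and each value is the highest of many. Over the 8 libraries outside DOCA the same pairs had 0.835 (BNIP3 and IRGC) to 0.973 (PINK1 and EIF3L).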

How the data were processed

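Nuclear RNA from sorted cardiomyocytes was profiled in 10 libraries, grouped by their labels. The build is Sscrofa11.1 and the tools named are StringTie, SAMtools and edgeR, per the submitters' processing notes; aligner, versions, strand setting and annotation release are not given in the sources used here. Every library came with coverage, FPKM and TPM for each gene, per the file headers. Estimated counts, as whole numbers and with no gene names beside them, were deposited in 1 further table. Its 35670 lines were joined to the gene identifiers in sorted order: zeros then coincided for 99.998% of values, against 62.6% after a shift by 1 line, and each of the 10 columns tracked its own library's coverage best. The deposited FPKM values entered no test.

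Counts, already whole, were tested by quasi-likelihood in edgeR 4.0.16 (R 4.3.3; TMM scaling, filterByExpr, group as the only term, all 10 libraries in 1 fit of 17251 genes), with Benjamini-Hochberg adjustment over all genes tested and a threshold of 0.05. The code was checked on simulated counts. An approximate SE was taken from the fold change and the F statistic. CPM values are counts scaled to the TMM-adjusted library size. The ratio of BNIP3L to BNIP3 was compared by an exact permutation test (SciPy 1.17.1). Alternatives used limma 3.58.1, DESeq2 1.42.0, other scalings, no filter, thinning to the shallowest library, the 2 compared groups alone, and each library left out in turn.

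The members and lists were chosen with earlier results of these data known. The rule for names takes all 9 members, up to 4 genes with the lowest adjusted p from each list, and the gene of most similar profile. Neither sequences nor promoters of the members were used here. The small number of libraries and, for low genes, the small counts limit the precision.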

Additional observations from a re-analysis of the deposited data

How the results depend on the processing

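The counts of members called changed with some settings. Thinned to the shallowest library, edgeR gave 1 higher and 2 lower in DOCA against control, as in the main fit. BNIP3L was then at -1.72 (adjusted p = 0.00215). With quality weights per library 0 members were lower and 0 higher in DOCA against control and 0 were higher in DOCA plus JK07 against DOCA. In limma on log2(TPM + 1), on log2(TPM + 0.1) and on rescaled TPM, and with only the 2 groups fitted, 0 were higher in DOCA; with only the 2 groups fitted 0 were higher with JK07 than in DOCA, and DESeq2 gave 2 higher and 1 lower there. In DOCA against control DESeq2 and limma on both TPM scales gave 3 lower, with BECN1 added. Leaving out each library gave 1 to 2 lower and 0 to 2 higher in DOCA against control, and 1 to 2 higher and 0 to 1 lower in DOCA plus JK07 against DOCA; where FUNDC1 or TFEB ended a call the cause was not tested. In DOCA plus JK07 against control every fit gave 0 members.

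Signs turned for members that did not pass. In DOCA against control, log2(TPM + 1), log2(TPM + 0.1) and the fits without 1 library gave BNIP3 -0.15, -0.18 and -0.13 to 0.83, SQSTM1 -0.23, -0.25 and -0.05 to 0.61, and ULK1 -0.16, -0.33 and -0.24 to 0.56 (-0.08 on rescaled TPM). OPTN had 0.11 under upper quartile scaling and -0.36 to 0.07 without 1 library. In DOCA plus JK07 against DOCA, the same 2 TPM scales gave BNIP3 0.15 and 0.17, SQSTM1 0.64 and 0.68, ULK1 0.41 and 0.69, and TFEB 0.13 and 0.16; rescaled TPM gave SQSTM1 0.15 and ULK1 0.18, and quality weights ULK1 0.09. PINK1 had -0.08 under upper quartile scaling. OPTN had -0.10 with RLE size factors and in DESeq2, -0.23 under upper quartile scaling, -0.09 with quality weights, -0.07 thinned, and -0.04 without ribosomal and mitochondrial genes or with only the 2 groups. Without 1 library OPTN had -0.23 to 0.24, PINK1 -0.17 to 0.53, SQSTM1 -0.38 to 0.28 and ULK1 -0.38 to 0.42. In DOCA plus JK07 against control both TPM scales gave OPTN 0.07.

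The median log2 change of all genes in DOCA against control was -0.63, -0.39 under upper quartile scaling and -0.98 on log2(TPM + 0.1), so changes are read against it. The quality-weight fit called 67 genes higher and 94 lower there, against 988 and 3403. No paired analysis was possible because the groups share no replicate numbers. Low depth in DOCA limits FUNDC1, and the low coverage of its DOCA values limits BNIP3L.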
